A study of Mus musculus with 2 samples.

Results

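The genes examined here encode the HGF-MET and EGFR signals of liver regeneration (LR), 2 of the receptor systems through which growth factors act directly on hepatocytes. They are 10 of the 34745 genes in the expression table, matched by gene name, and they fall into 6 genes for ligands and ligand activation (*Hgf*, *Hgfac*, *Egf*, *Tgfa*, *Areg* and *Hbegf*) and 4 genes for receptors and their inhibition (*Met*, *Egfr*, *Erbb3* and *Errfi1*). RNA-seq of poly(A) transcripts covered male miRNA-182 KO mice, heterozygous with the knockout on 1 allele, and male WT mice, all 8 to 10 weeks old at surgery. Mice of both genotypes underwent 2/3 partial hepatectomy (PH), in which 70% of the liver was removed, and the livers were taken at day 3. No liver without PH was analysed here, so the values compare genotypes within regenerating liver and do not show what PH itself changed. Each genotype had 1 library, and how many mice went into it is not given in the sources used here.

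Hepatocyte growth factor (HGF) is made in the liver mainly by stellate and endothelial cells as an inactive single chain. Serine proteases, among them the HGF activator encoded by *Hgfac*, cleave it into the form that binds the receptor tyrosine kinase MET on hepatocytes. EGF, TGFα, amphiregulin and HB-EGF are made as membrane-bound precursors, are released by shedding, and all bind the receptor EGFR. ERBB3, a relative of EGFR with little kinase activity of its own, binds neuregulins and signals through its partner receptors. ERRFI1, also called MIG6, binds the EGFR kinase domain and shuts it down as part of a feedback loop. The study asked what part miR-182-5p has in LR, and the comparison asks whether the genes of these growth signals differed with its genotype.

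The knocked-out microRNA is shown first, since the genotypes differ in its gene. Its mature form is encoded at chr6:30165962-30165986 on the minus strand of GRCm38.p6, and the RefSeq sequence is given 5′ to 3′ with the seed, bases 2 to 8, in capitals.
miR-182-5p: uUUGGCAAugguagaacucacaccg
A message can pair with this seed through the 7 letters TTGCCAA, through TGCCAAA, or through both overlapping as TTGCCAAA. The longest annotated 3′ UTR of each member was searched for these letters on the transcript strand. The 3′ UTRs of *Hgf*, *Hgfac*, *Egf*, *Tgfa*, *Met*, *Egfr*, *Erbb3* and *Errfi1* held none of them, although that of *Egfr* is 6303 bases long. *Areg* held 1 match to TTGCCAA at chr5:91148211-91148217 on the plus strand, in a 3′ UTR of 253 bases, printed here from the GENCODE transcript because it is the single match of this kind among the members, with the pairing letters in capitals.
*Areg* site: ttgaatcaTTGCCAAgccacacc
*Hbegf* held 2 matches to TGCCAAA in a 3′ UTR of 1456 bases. Among 12503 tested genes with an annotated 3′ UTR, 19.5% held at least 1 of these matches and 4.98% held the 8-letter form, which no member did. TTGCCAA, on either strand, was also in none of the 11 RefSeq promoter windows of 8 members, each 300 bases from 250 before to 50 after a start site, against 3.80% of all 32851 windows.

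The libraries held 13247497 counts (KO) and 13163348 counts (WT). Mitochondrially encoded messages (13 genes) made up 51.7% (KO) and 31.0% (WT) of all counts, and scaling by total counts moved the median of all genes, on the log2 scale, to −0.60, and 87.8% of the called genes were then lower. The TMM method of edgeR, which limits the weight of such genes, put this median at 0.00 and the share of lower calls at 51.1%, and it is used below unless total counts are named. TMM takes most genes as unchanged, so both values follow largely from the method. They do not show which scaling is right. *Mir182* itself was not analysed here, which leaves the labelled genotypes without a check on the targeted gene. The tissue was labelled liver, and the hepatocyte marker *Alb* stood at 10010 FPKM (KO) and 15903 FPKM (WT). FPKM follows total counts, and with TMM the log2 fold change of *Alb*, KO over WT, was −0.07.

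FPKM, the authors' counts per kilobase of gene scaled to the total count of the library, compares the members with each other. Between KO and WT these values carry the shift of total-count scaling given above. *Errfi1* was the most abundant member at 53.9 FPKM (KO) and 88.4 FPKM (WT), and *Egfr* followed at 32.7 and 26.6 FPKM. *Hgfac*, made and secreted by hepatocytes, stood at 21.2 FPKM (KO) and 24.1 FPKM (WT), *Erbb3* at 11.3 and 17.7 FPKM, and *Met* at 2.54 and 3.45 FPKM. The growth factor genes were all below the receptor genes. *Tgfa* was the highest of them, at 0.373 FPKM (KO) and 1.07 FPKM (WT), followed by *Hbegf* at 0.286 and 0.416 FPKM. *Hgf* stood at 0.0336 and 0.216 FPKM and *Egf*, whose protein reaches the liver largely from other organs, at 0.0768 and 0.108 FPKM. *Areg* had 2 (KO) and 0 (WT) counts, both under the floor of 3 counts taken as the limit of detection, so no fold is given.

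**Figure D1:**
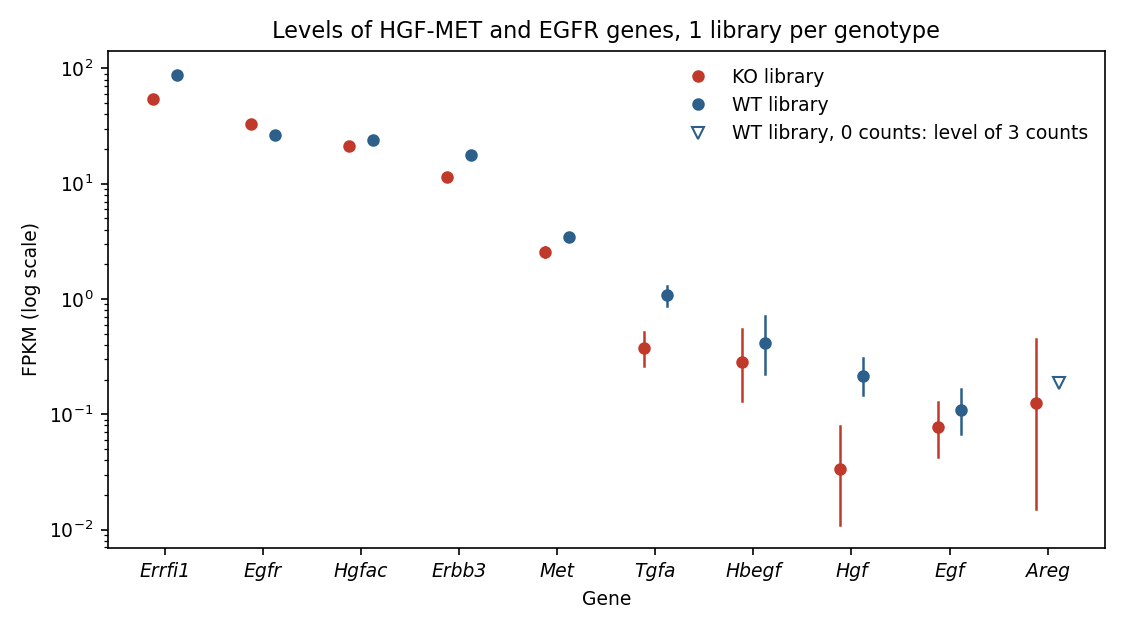
FPKM of the 10 genes on a log axis, ordered by the WT level, for the KO library (red) and the WT library (blue), 1 library each; vertical lines are exact 95% Poisson intervals of the counts, and the open triangle marks the level of 3 counts where a library had 0. *Errfi1*, *Egfr*, *Hgfac* and *Erbb3* lie above 10 FPKM in both libraries, and the intervals of *Hgf* do not overlap while those of *Hbegf* and *Egf* do.

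The order from *Errfi1* through *Egfr*, *Hgfac*, *Erbb3*, *Met* and *Tgfa* to *Hbegf* was the same in both libraries. Each neighbour down to *Tgfa* differed beyond counting error, with exact 95% intervals of the ratio that excluded 1. The step from *Errfi1* to *Egfr* differed in size, with *Errfi1* 1.65 times as high per length in the KO library (95% interval 1.58 to 1.72) and 3.33 times in the WT library (3.21 to 3.46). No neighbours of the KO library from *Tgfa* down to *Hgf* differed beyond counting error, and in the WT library *Hbegf* and *Hgf* did not. The gene lengths that the FPKM imply reach 14745 bases for *Egf* and 11242 bases for *Hgf*, whose longest annotated transcripts have 4761 and 3468 bases. Per kilobase of the longest transcript, *Hgfac* (678 counts in KO, 765 in WT) came before *Egfr* (521 and 420), and in the WT library *Hgf* (9.23) came before *Hbegf* (4.50), so these orders depend on the length used.

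A gene was called higher or lower when its log2 fold change, KO over WT, was 1 or more in either direction and its p-value in an exact binomial test was under 0.05 once adjusted over all 13561 genes with at least 10 counts. By this call 16.3% of the tested genes differed, with 7.97% higher and 8.32% lower. Of the 9 members tested, *Hgf* was called lower and none was called higher, a share near that background. By the adjusted p-value alone, which asks for a difference beyond counting error of any size, *Egfr* and *Hgfac* were higher and *Hgf*, *Tgfa* and *Errfi1* were lower, 5 of 9 members against 47.7% of all genes tested. Past 2-fold in size with no test, *Hgf* was again the single member, where 9.46% of genes were higher and 9.94% lower. The exact test sets 1 library against another and says nothing of the spread between mice, and all intervals cover counting error only, since with 1 library each there is no replicate check.

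*Hgf* (ENSMUSG00000028864, chr5:16553495-16620152, plus strand) had 5 (KO) and 32 (WT) counts, or 0.465 and 1.97 CPM, the counts of a library brought to a common size with TMM. It was the lower of the pair in the KO library, with count intervals that did not overlap. The log2 fold change was −2.00 (95% interval −3.80 to −0.72, adjusted p = 0.00214 by the exact binomial test), lower than in all but 3.22% of the genes tested. The call rests on 37 counts, and among genes with 20 to 150 counts over both libraries 12.4% were called lower. When the exact test of edgeR was given a biological coefficient of variation of 0.2, assumed and not measured, the adjusted p was 0.0972, and the call was lost. *Gm43489*, a transcript model inside *Hgf* on the same strand, had 0 (KO) and 5 (WT) counts.

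Some markers of the cells that make *Hgf* were also lower in the KO library, and their part in the result was not tested. Of all genes tested, 8.32% were called lower with TMM. Of 9 stellate cell markers, all tested, 3 were called lower and none higher, with a median log2 fold change of −0.77 and summed levels of 57.0 (KO) and 89.1 (WT) CPM. *Lrat*, the retinol-esterifying enzyme that defines quiescent stellate cells, had 45 and 126 counts, and none of the 9 was at 0. The 3 called were *Col1a1*, *Acta2* and *Ngfr*, named after their values were seen, as was *Pdgfrb*, which stood at 0.03 (−0.45 to 0.50). Of 8 endothelial markers 1, *Lyve1*, also named afterwards, was called lower, the median was −0.42 and the summed levels were 85.7 (KO) and 99.97 (WT) CPM. *Stab2*, the endothelial marker with the most counts, stood at 0.01 (−0.20 to 0.22), and *Ptprb*, also named afterwards, was higher beyond counting error at 0.38 (0.06 to 0.69), or −0.22 with total counts. Of 8 Kupffer cell and macrophage markers 2, *Adgre1* and *Marco*, named in the same way, were called lower, the median was −0.30 and the summed levels were 135 (KO) and 179 (WT) CPM. *Clec4f*, the first marker of this list, had 600 and 1108 counts and stood at −0.29 (−0.44 to −0.15), not called. No endothelial or Kupffer cell marker was at 0 either. With total counts 6 stellate, 4 endothelial and 3 Kupffer cell markers were called lower (66.7%, 50% and 37.5%), beside 25% of all genes tested. The medians were then −1.37, −1.01 and −0.90, beside −0.60. *Hgf* made up 81.6 (KO) and 222 (WT) per 10000 summed stellate marker counts, a ratio of 0.368 (95% interval 0.111 to 0.958) that no scaling changes. The same ratio was 0.275 (0.0833 to 0.714) over the endothelial markers and 0.311 (0.0945 to 0.808) over the Kupffer cell markers. The sums weigh most the markers with the most counts, and the intervals do not cover the spread among markers. Beside 5 (KO) and 32 (WT) counts of *Hgf*, *Ngfr* had 4 and 24, *Lyve1* 4 and 45 and *Pdgfrb* 65 and 96. In bulk liver, fewer cells of a type and less RNA per cell cannot be told apart.

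*Hgfac* (ENSMUSG00000029102, chr5:35041509-35048461, plus strand) had 1679 (KO) and 1894 (WT) counts, or 156 and 117 CPM. Its log2 fold change was 0.42 (0.32 to 0.51, adjusted p = 1.02e-16 by the same exact test), under 2-fold, and −0.18 with total counts. The activator and its substrate stood in different proportion, with 336 (KO) and 59.2 (WT) *Hgfac* counts per *Hgf* count, a 5.67-fold difference (95% interval 2.19 to 18.7). This pair was chosen after the values were seen. Its ratio combines the fold changes of *Hgfac* and *Hgf* already given and is no separate result.

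*Tgfa* (ENSMUSG00000029999, chr6:86195223-86275719, plus strand), the EGFR ligand that hepatocytes make for themselves during LR, had 36 (KO) and 103 (WT) counts, or 3.35 and 6.35 CPM. Its log2 fold change, −0.92 (−1.51 to −0.36, adjusted p = 0.00222 by the exact binomial test), was beyond counting error and just short of 2-fold. With total counts it was −1.51 and passed the call, where 25% of all genes tested were called lower and their median was −0.60. Per summed count of the hepatocyte markers the ratio of *Tgfa*, KO over WT, was 0.527 (95% interval 0.350 to 0.777). With TMM the marker sums were nearly equal, 53166 (KO) and 53151 (WT) CPM, so this ratio restates the TMM value and is no separate check. *Hbegf* (ENSMUSG00000024486) had 9 and 13 counts and stood at 0.06 on the log2 scale (−1.34 to 1.40). *Egf* (ENSMUSG00000028017, chr3:129677565-129755316, minus strand) had 15 and 21 counts and stood at 0.10 on the log2 scale (−0.95 to 1.13). At this depth, the intervals of these last 2 ligands reach past 2-fold or close to it in either direction, so that a difference of that size was not detectable, and their direction turned below 0 with total counts.

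*Egfr* (ENSMUSG00000020122, chr11:16752203-16918158, plus strand) had 5316 (KO) and 4290 (WT) counts, or 494 and 265 CPM. It was the member with the largest excess in the KO library, at a log2 value of 0.90 (0.84 to 0.96, adjusted p = 1.03e-202 by the exact binomial test), which is 1.87-fold and short of the call. It was higher than in 88.8% of the genes tested, and it stayed above 0 with total counts, at 0.30. Per 10000 summed counts of 8 hepatocyte markers, *Egfr* had 93.0 (KO) and 49.8 (WT) counts, a ratio of 1.87 (95% interval 1.79 to 1.94). None of the hepatocyte markers was called, their median log2 fold change was −0.05 and their summed levels, mostly *Alb* and *Apoa1*, were 53166 (KO) and 53151 (WT) CPM. As these sums were nearly equal, the ratio of *Egfr* to them restates its TMM fold and is no separate check. Single markers were not level, with 5 of 8 lower and 2 higher beyond counting error. *Cps1* and *Ass1*, named after their values were seen, were the lowest at −0.63 and −0.51, and with total counts they stood at −1.23 and −1.11 and were called lower. That is 25% of the hepatocyte markers, beside 25% of all genes tested.

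*Errfi1* (ENSMUSG00000028967, chr4:150853919-150868892, plus strand) had 4397 (KO) and 7165 (WT) counts, or 409 and 442 CPM. Its log2 fold change was −0.11 (−0.17 to −0.06, adjusted p = 1.99e-04 by the exact binomial test), and −0.71 with total counts. *Erbb3* (ENSMUSG00000018166, chr10:128567523-128589652, minus strand) had 903 and 1401 counts and stood at −0.04 on the log2 scale (−0.16 to 0.08), and −0.64 with total counts. *Met* (ENSMUSG00000009376, chr6:17463800-17573980, plus strand) had 390 and 526 counts and stood at 0.16 on the log2 scale (−0.03 to 0.35), and −0.44 with total counts. *Errfi1* and *Erbb3* thus had fewer raw counts in the KO library but nearly equal levels once scaled by TMM, and for *Met* and *Erbb3* the intervals with TMM exclude a 2-fold difference between these libraries in either direction.

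**Figure D2:**
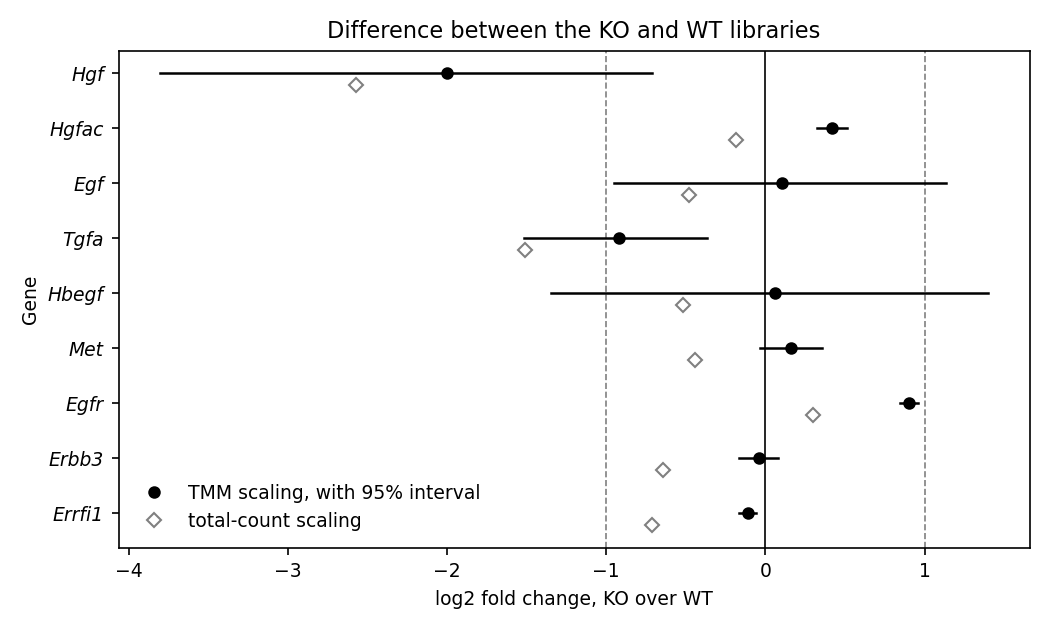
log2 fold change, KO over WT, of the 9 members with at least 10 counts; filled points with lines show TMM scaling with exact 95% binomial intervals, open diamonds show total-count scaling, and dashed lines mark 2-fold. *Hgf* lies below −1 and *Egfr* above 0 with both scalings, whereas *Hgfac*, *Egf*, *Hbegf* and *Met* change sides.

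The median log2 fold change was 0.06 over the 5 ligand genes tested, *Hgfac* included, and 0.06 over the 4 receptor genes, *Errfi1* included, beside 0.00 for all genes tested. With total counts these medians were −0.52 and −0.54, beside −0.60.

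Ratios of members within a library do not depend on how the libraries are scaled, and 12 pairs were compared in this way, chosen after the values were seen. *Egfr* had 1.21 (KO) and 0.599 (WT) counts per *Errfi1* count, so that the receptor was 2.02-fold higher relative to its inhibitor in the KO library (95% interval 1.91 to 2.13). Relative to *Erbb3* it was 1.92-fold higher (1.75 to 2.11) and relative to *Met* 1.67-fold (1.45 to 1.92). Among the other 3 genes the ratios differed less. *Erbb3* to *Errfi1* differed by a factor of 1.05 (0.957 to 1.15) and *Met* to *Erbb3* by 1.15 (0.982 to 1.35), both with intervals that hold 1, and *Met* to *Errfi1* by 1.21 (1.05 to 1.39). Of receptors with a ligand, 2 pairs were compared, with the ligands that were lower beyond counting error. *Egfr* had 148 counts per *Tgfa* count (KO) and 41.7 (WT), a 3.54-fold difference (2.40 to 5.35), and *Met* had 78.0 per *Hgf* count against 16.4, a 4.74-fold difference (1.81 to 15.7). Between the ligands, the ratio of *Tgfa* to *Hgf* differed 2.23-fold with an interval that holds 1 (0.778 to 7.88).

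**Figure D3:**
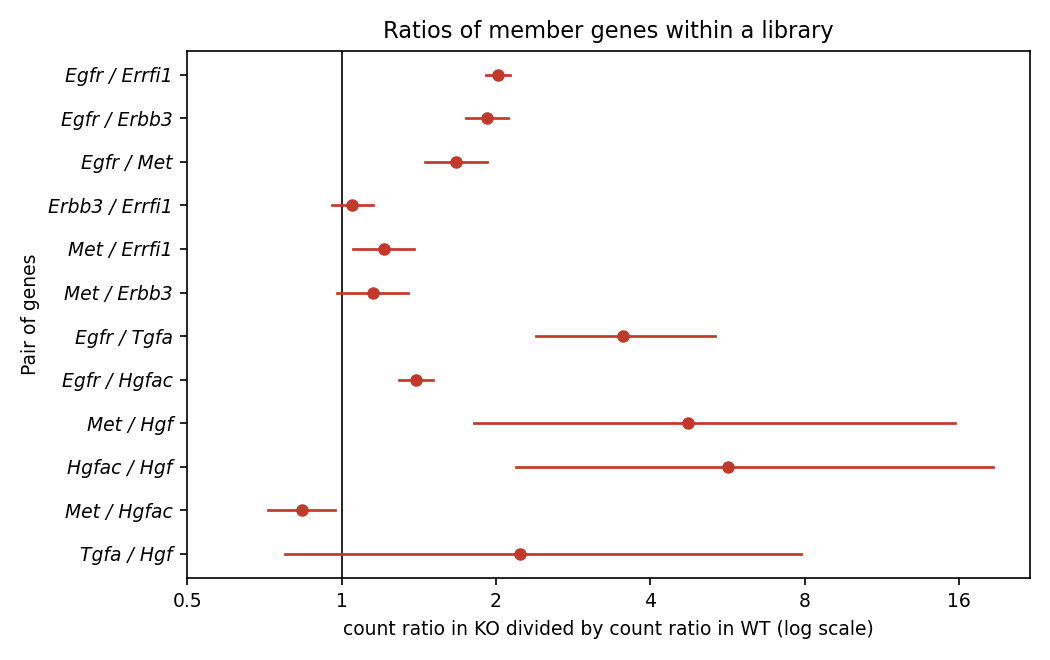
Count ratio of 2 members in the KO library divided by the same ratio in the WT library, on a log axis, for 12 pairs; points are conditional odds ratios and lines their exact 95% intervals, which cover counting error. The 3 ratios of *Egfr* to *Errfi1*, *Erbb3* and *Met* lie between 1.67 and 2.02, and the widest intervals are those with *Hgf*.

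The other genes of these pathways were taken from lists chosen for their roles, with earlier results of these data known. Of 76 genes, 70 were tested, 10 were called higher and 4 lower, beside 7.97% and 8.32% of all genes tested, and their median log2 fold change was 0.07. With total counts the balance turned, with 4 called higher and 9 lower, beside 3.47% and 25% of all genes tested, and a median of −0.53 beside −0.60. The 4 higher genes were all among the 10 called with TMM.

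Among the other EGF family ligands and receptors, 5 of 9 genes were tested. Of these, 1 was called higher and 1 lower, beside 7.97% and 8.32% of all genes tested. *Nrg1*, a neuregulin that binds ERBB3, had 6 (KO) and 67 (WT) counts, and its log2 fold change was −2.81 (−4.39 to −1.69, adjusted p = 1.54e-08 by the exact binomial test), and −3.39 with total counts. *Erbb2*, the partner receptor of ERBB3, had 23 and 12 counts and stood at 1.49 on the log2 scale (0.46 to 2.67, adjusted p = 0.00767 by the same test). With total counts it stood at 0.90, under 2-fold, and the call was lost. *Erbb2* overlaps *Mien1* on the opposite strand, which had 380 and 799 counts, and the strand setting of the counting is not given in the sources used here. The neuregulin gene *Nrg4* stood at 0.35 (−0.12 to 0.82), *Btc*, for the ligand betacellulin, at −0.02 (−0.93 to 0.87) and the receptor gene *Erbb4* at 0.69 (−0.59 to 2.04). *Ereg* had 0 and 1 counts, and *Epgn*, *Nrg2* and *Nrg3* had 0 in both libraries.

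The next list held 11 genes for the activation and inhibition of HGF and for the relatives of HGF and MET, all tested. Of these, 2 were called higher and none lower, beside 7.97% and 8.32% of all genes tested. With total counts 1 of the 2 calls was lost, and both genes had few counts. *Plat*, for tissue plasminogen activator, had 13 and 3 counts (log2 fold change 2.49, 0.84 to 5.16), and *Serpina5*, for an inhibitor of serine proteases, had 10 and 2 (2.59, 0.68 to 6.14). The abundant genes of the list differed by less than 2-fold. *Hpn*, for hepsin, a hepatocyte protease that can cleave pro-HGF, had 1729 and 3256 counts and stood at −0.32 (−0.41 to −0.24). *Mst1*, for the HGF-like ligand of the receptor encoded by *Mst1r*, had 2125 and 2600 counts and stood at 0.30 (0.22 to 0.38), and turned to −0.30 with total counts. *F12* stood at 0.14, *Plg*, for plasminogen, at −0.18 and *Spint2*, for an inhibitor of HGF-activating proteases, at −0.05. With total counts *F12* turned to −0.46, and *Plg* stood at −0.78, *Spint2* at −0.65 and *Hpn* at −0.92. *Plau* (18 and 15 counts), *St14* (7 and 15), *Mst1r* (7 and 15) and *Spint1* (6 and 4) were too sparse to place, each with an interval that holds 0.

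All 5 genes for shedding of EGF family ligands were tested and none was called. *Adam17*, the main sheddase of TGFα and amphiregulin, had 116 and 231 counts and stood at −0.40 on the log2 scale (−0.74 to −0.07), and the other 4 stood between 0.03 and 0.07.

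Of 24 adaptors and kinases downstream of the receptors, all tested, 3 were called higher and 2 lower, and the median was −0.10. Of all genes tested, 7.97% were called higher and 8.32% lower. The largest differences were in 2 catalytic subunits of PI3-kinase that went opposite ways. *Pik3ca*, for the alpha subunit, had 29 (KO) and 317 (WT) counts, and its log2 fold change was −2.84 (−3.46 to −2.31). *Gm37123*, which overlaps it on the same strand, had 3 and 4 counts. *Pik3cb*, for the beta subunit, had 86 and 18 counts, and its log2 fold change was 2.81 (2.10 to 3.67), and 5.76% of the 51-base words of its longest transcript occur in other genes. *Nras*, a RAS GTPase gene, had 56 and 432 counts and stood at −2.35 (−2.78 to −1.95). *Pik3ca*, *Pik3cb* and *Nras* stayed past the call on the same side with total counts, at −3.44, 2.22 and −2.95. *Plcg1*, for phospholipase C gamma, stood at 1.17 and *Sos2*, for a RAS activator, at 1.05, and with total counts at 0.57 and 0.45, under 2-fold. *Plcg1* overlaps *Zhx3* on the opposite strand, which had 300 and 387 counts.

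Of 18 negative regulators 17 were tested, 3 were called higher and none lower, beside 7.97% and 8.32% of all genes tested. The median was 0.29. With total counts 1 was called higher and 2 lower (5.88% and 11.8%), beside 3.47% and 25% of all genes tested, and the median was −0.31 beside −0.60. *Ptpn1*, for the phosphatase PTP1B, had 170 and 61 counts and stood at 2.06 on the log2 scale (1.64 to 2.52), and stayed past 2-fold with total counts at 1.46. *Socs5* had 69 and 40 counts and stood at 1.37 (0.80 to 1.98), and *Socs3*, an inhibitor of cytokine receptor signaling, had 305 and 228 counts and stood at 1.01 (0.76 to 1.27). With total counts they stood at 0.77 and 0.41. *Lrig1*, for a membrane protein that promotes the degradation of EGFR and MET, stood at 0.89 and *Dusp6*, for an ERK phosphatase, at 0.22 (−0.06 to 0.50), neither past the call and both named after their values were seen. Below 0, and named in the same way, stood *Dusp5* at −1.41 (−3.04 to −0.15, 6 and 25 counts) and *Spry2* at −0.76 (−1.87 to 0.22). *Spry1* stood at −0.38, *Cbl* at −0.35 and *Spred1* at −0.35, and none of these was called. By the adjusted p-value alone, 5 of the list were higher and 0 lower.

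Of 9 genes that ERK signaling induces, 8 were tested. Of these, 1 was called higher and 1 lower, beside 7.97% and 8.32% of all genes tested, and the median was 0.00. With total counts 1 was called higher and 4 lower (12.5% and 50%), beside 3.47% and 25% of all genes tested. *Egr1* had 127 and 431 counts and stood at −1.17 on the log2 scale (−1.47 to −0.88). *Fos*, named after its values were seen because it is the single gene called higher, had 30 and 5 counts and stood at 3.03 on the log2 scale (1.80 to 4.90). The cyclin gene *Ccnd1*, also named afterwards, had 529 and 1487 counts and stood at −0.90 (−1.04 to −0.75), and at −1.50 with total counts. *Phlda1*, named in the same way, had 310 and 238 counts and stood at 0.97 (0.73 to 1.22), and at 0.37 with total counts. Neither was called with TMM. By the adjusted p-value alone, 2 of the list were higher and 3 lower.

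Of all genes tested, 7.97% were called higher. Of 6 cholangiocyte markers 5 were tested and 2 called higher, *Krt19* with 26 and 7 counts and *Krt7*, named after its values were seen, with 15 and 6. *Sox9* stood at −0.31 (−0.75 to 0.12) and *Epcam* at 0.14 (−1.12 to 1.37), also named afterwards. The summed levels were 164 (KO) and 126 (WT) CPM, mostly from *Spp1*, which had 1638 of 1759 (KO) and 1875 of 2036 (WT) of the summed counts. Of 8 neutrophil and lymphocyte markers 3 were tested and 1, *Cd79a*, likewise named afterwards, was called higher with 12 and 4 counts, and the summed levels were 32.3 (KO) and 30.03 (WT) CPM. *S100a8*, the first marker of this list, had 142 and 214 counts and stood at 0.00 (−0.32 to 0.31). *S100a9*, named afterwards, had 189 and 256 counts and stood at 0.15 (−0.12 to 0.43). The part of these cell types in the results was not tested.

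**Figure D4:**
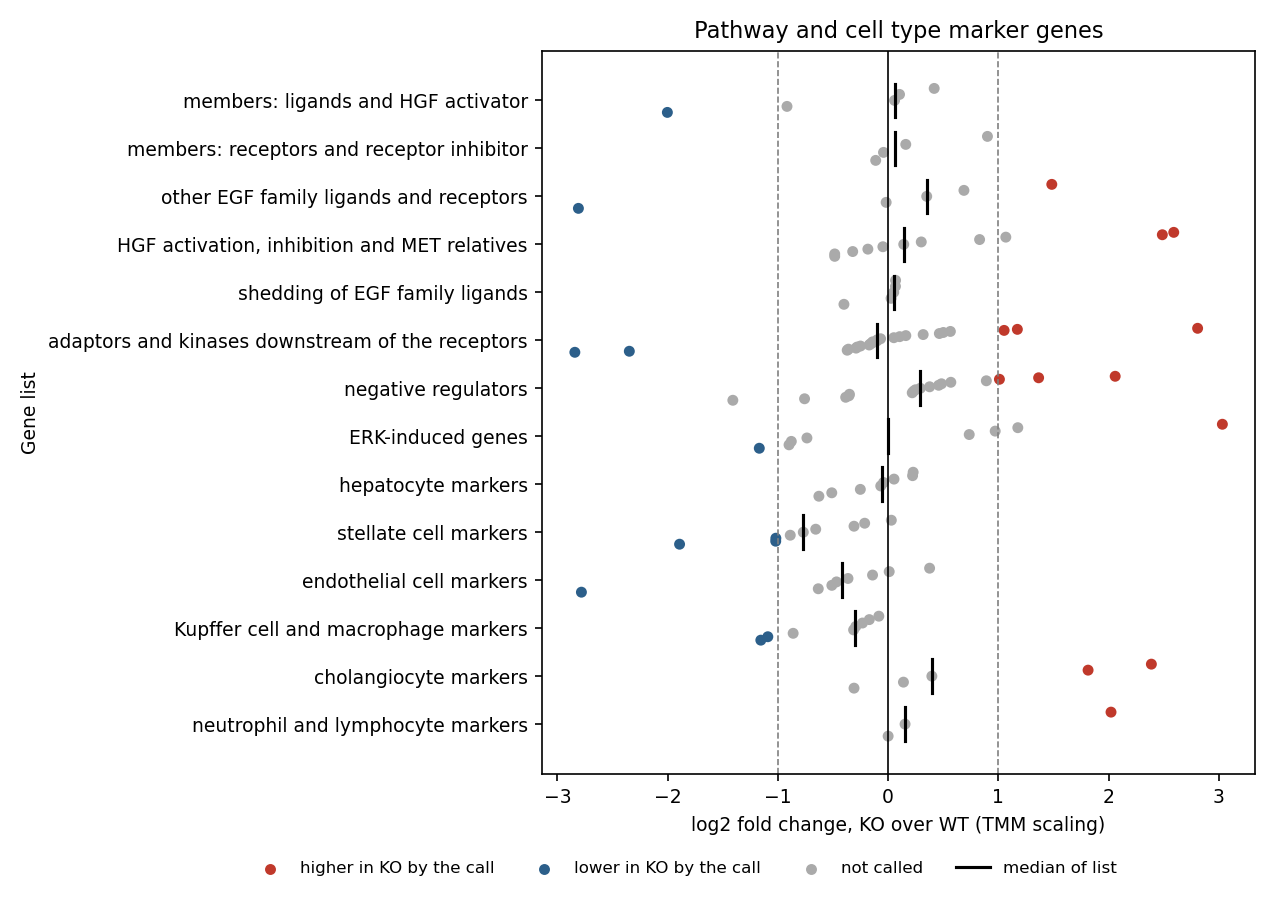
log2 fold change, KO over WT with TMM scaling, of each tested gene in the pathway and cell type marker lists, 1 row per list; red and blue points are genes called higher and lower, grey points are not called, black bars are list medians and dashed lines mark 2-fold. The stellate cell markers have the lowest median, −0.77, and the called genes of the pathway lists lie on both sides of 0.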

How the data were processed

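Counts of reads per gene were deposited by the authors without normalization, with the FPKM they computed from total counts, mitochondrial genes included. The submitters' processing notes list HISAT2 2.0.4, StringTie and edgeR without roles and name the human build hg38, whereas gene identifiers and positions in the table are those of mouse GRCm38, where 9 of the 10 members have the same coordinates in GENCODE M21. Genotypes were taken from the labels, and the day after PH from the study. A minimum of 10 counts summed over the libraries left 13561 genes. TMM factors came from edgeR 4.0.16 and size factors from DESeq2 1.42.0 (R 4.3.3), and the prior count was 0.5. Counts were compared by the exact binomial test of scipy 1.17.1 (Python 3.11.15), two-sided, and p-values were adjusted by Benjamini-Hochberg over all 13561 genes. The depth, 13247497 and 13163348 counts, sets the intervals, which are exact at 95% and cover counting error only. The steps were tested on simulated data, where 198 of 200 genes changed by a log2 of 2 in either direction were called, with 3 false calls. Both simulated libraries shared 1 composition and held counting error only. The simulation therefore could not test the effect of the mitochondrial difference or of variation between mice. Named genes were the 10 members, all genes of the EGF family and HGF lists, and in other pathway lists up to 3 called genes per direction with at least 50 counts in the higher library, and the first marker of a list. The members and lists were chosen with earlier results of these data known. No column of per-sample values was left unmapped. Alternatives were other scalings, FPKM with pseudocounts, another prior count, other count minimums, assumed biological variation and no test. Calls in the lists with total counts were added after seeing the data.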

Additional observations from a re-analysis of the deposited data

How the results depend on the processing

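No paired analysis was possible because KO and WT are single libraries, and for the same reason no replicate could be left out. Over 13 alternatives, *Egfr* stayed above 0 (0.29 to 0.91) and *Erbb3*, *Errfi1*, *Tgfa* and *Hgf* below 0 wherever they were tested. Alternatives that changed only the count minimum or the test could not move a fold change. Only the other scalings, the FPKM settings and the other prior count could turn a direction. *Hgf* ranged from −2.57 to −0.23 and lost its call with a pseudocount of 1 on FPKM and with assumed coefficients of variation of 0.2 and 0.4, and was not tested with at least 50 counts, so the number of lower members was then 0 in each case. It was 2, with *Tgfa* added, with total counts, with total counts without mitochondrial genes and with FPKM and a pseudocount of 0.1. No alternative called a member higher.

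With total counts *Hgfac* turned to −0.18, *Egf* to −0.48, *Hbegf* to −0.52 and *Met* to −0.44, the receptor median was −0.54, and 471 genes were higher and 3397 lower. With FPKM and a pseudocount of 0.1 the same 4 genes stood at −0.18, −0.24, −0.42 and −0.43, the receptor median at −0.53, and 405 genes were higher and 2934 lower. With a pseudocount of 1 they stood at −0.18, −0.041, −0.14 and −0.33, the receptor median at −0.46, and 105 genes were higher. Without mitochondrial genes in the totals *Hbegf* turned to −0.024. With at least 50 counts 642 genes were higher, since fewer genes (10916) were tested. In the exact test of edgeR 488 genes were higher and 444 lower at an assumed variation of 0.2, and 59 and 58 at 0.4. Depth limits *Areg*, *Hbegf*, *Egf* and *Hgf*, which had 2 to 37 counts over both libraries.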
